A study of Homo sapiens with 4 samples.

Results

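To ask how the zinc-buffering genes of the cell responded to loss of LDB1, 8 genes were followed in the RNA-seq table. They were the metallothioneins MT2A, MT1X, MT1E, MT1F, MT1G and MT1H, the transcription factor MTF1 and the zinc exporter SLC30A1. They were taken by gene symbol from the 28412 genes of the table, and all 8 had a value in every library. The 4 libraries came from cells labelled NB4, a human line of acute promyelocytic leukemia. A pair of control libraries was made from cells with the vector sh-NC, described by GEO's labels as untreated at the source and control in genotype. The other pair, called the knockdown here, had an shRNA against LDB1 (sh-LDB1), a nuclear adaptor protein, and is labelled as such. Cells of both kinds had been infected with lentivirus and selected with puromycin, so the groups share both. The study lists 3 shRNAs against human LDB1, and the sources used here do not say which was sequenced. Nothing states that the replicates came from separate cultures, so p-values measure only the spread between these libraries.

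The level of each gene is given in FPKM, a read density that corrects for gene length and library depth. The 4 libraries held between 14119688 and 16320739 whole reads recovered from the FPKM. LDB1 itself fell from 135.1 and 120.1 FPKM in the controls to 10.2 and 9.47 FPKM in the knockdown (limma adjusted p = 6.9e-05, log2 fold change -3.56). The labelled cell type was checked against listed markers. Of 6 promyelocytic markers, 4 had a value, and together they summed to 4.12 and 4.79 FPKM in sh-NC, where ELANE was listed at 0. In the knockdown they summed to 8.77 and 11.4 FPKM. PRTN3 and AZU1 were higher there. CEBPE was lower, at 1.55 and 1.27 FPKM in sh-NC and 0.924 and 0.340 FPKM in sh-LDB1 (limma adjusted p = 0.081). MPO and CTSG were looked up by symbol and were not among the 28412 genes with a value. All 9 erythroid markers had a value, summing to 3761 and 3911 FPKM in the controls and to 327 and 360 FPKM in the knockdown, and 8 of 8 tested fell. All 5 monocyte and macrophage markers had a value. Their sums were 5.95 and 6.42 FPKM in the controls and 20.01 and 20.02 FPKM in the knockdown. Almost all of this was LYZ, at 5.85 and 5.61 FPKM in the controls and 19.3 and 19.1 FPKM in the knockdown. The others were near the floor, where CD14 and CSF1R were higher in the knockdown, CD68 was lower and FCGR3A overlapped. The control libraries thus held far more erythroid than promyelocytic transcript, which goes against the label. The study, on the other hand, states that its cell lines were authenticated by short tandem repeat profiling. Its report for NB-4 gives an exact match to the reference profile. Whether the profiled cells were those sequenced is not stated, and the conflict was not resolved here. In bulk samples, fewer cells of a type and less RNA per cell cannot be told apart. The part of this shift in the results below was not tested.

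Metallothioneins are small cysteine-rich proteins that bind zinc and copper and are induced when free zinc rises. MTF1 is the zinc sensor: on binding zinc it moves onto metal response elements in the promoters of metallothionein genes and of SLC30A1. SLC30A1, also called ZnT1, sits in the plasma membrane and carries zinc out of the cell. A cell with more free zinc typically raises both the buffer and the exporter.

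The 6 metallothionein genes lie together on chromosome 16 (GRCh38, from 56608584 to 56684196), a stretch of 75613 bases. MT2A (ENSG00000125148; 56608584 to 56609497), MT1E (ENSG00000169715; 56625475 to 56627112), MT1F (ENSG00000198417; 56657731 to 56660698), MT1H (ENSG00000205358; 56669814 to 56671129) and MT1X (ENSG00000187193; 56682470 to 56684196) are read on the plus strand. MT1G (ENSG00000125144; 56666730 to 56668065) is read on the minus strand. Its start lies 1749 bases from that of MT1H, and this pair points away from each other. MTF1 (ENSG00000188786; 37809574 to 37859592) and SLC30A1 (ENSG00000170385; 211571568 to 211579161) are both on the minus strand of chromosome 1. All 8 are protein-coding genes in GENCODE release 44.

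Promoters are shown because the metal response element is the shared switch of the family. RefSeq (GRCh38.p14) gave a promoter for MT2A, MT1X, MT1H, MTF1 and SLC30A1, which runs from 250 bases before the start site through the first 50 bases of the transcript. MT1E, MT1F and MT1G had no entry. Each line below is read 5′ to 3′ on the strand of the gene, and capitals mark matches to the core of the metal response element on either strand. The core was searched as TGCACNC or TGCGCNC. The intervals are chr16:56608334-56608633 (plus strand) for MT2A, chr16:56669564-56669863 (plus) for MT1H, chr16:56682220-56682519 (plus) for MT1X and chr1:211579112-211579411 (minus) for SLC30A1.
MT2A: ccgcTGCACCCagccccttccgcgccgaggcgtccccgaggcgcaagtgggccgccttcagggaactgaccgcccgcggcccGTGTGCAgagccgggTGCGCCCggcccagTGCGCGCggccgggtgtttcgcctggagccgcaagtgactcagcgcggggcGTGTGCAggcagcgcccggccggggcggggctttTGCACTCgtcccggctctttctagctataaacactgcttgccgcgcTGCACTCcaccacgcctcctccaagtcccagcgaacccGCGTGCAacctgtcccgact
MT1H: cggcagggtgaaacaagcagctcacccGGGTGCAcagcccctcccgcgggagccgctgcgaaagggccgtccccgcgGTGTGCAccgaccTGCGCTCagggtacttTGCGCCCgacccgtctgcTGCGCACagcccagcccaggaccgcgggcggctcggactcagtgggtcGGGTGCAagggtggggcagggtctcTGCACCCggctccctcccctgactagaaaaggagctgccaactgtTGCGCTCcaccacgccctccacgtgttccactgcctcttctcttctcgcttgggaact
MT1X: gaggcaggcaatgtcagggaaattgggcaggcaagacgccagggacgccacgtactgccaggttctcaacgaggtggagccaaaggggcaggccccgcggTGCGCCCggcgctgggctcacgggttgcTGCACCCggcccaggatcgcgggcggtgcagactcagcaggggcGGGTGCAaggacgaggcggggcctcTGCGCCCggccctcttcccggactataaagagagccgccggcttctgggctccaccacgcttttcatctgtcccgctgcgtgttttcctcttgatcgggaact
SLC30A1: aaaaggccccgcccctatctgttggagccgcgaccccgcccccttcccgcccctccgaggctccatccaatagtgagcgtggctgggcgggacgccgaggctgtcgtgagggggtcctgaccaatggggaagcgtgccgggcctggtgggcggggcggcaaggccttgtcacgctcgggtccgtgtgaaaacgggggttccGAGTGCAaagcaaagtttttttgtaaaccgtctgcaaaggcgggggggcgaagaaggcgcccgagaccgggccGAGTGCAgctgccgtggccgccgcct

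The MT2A promoter held 8 cores, that of MT1H 8, that of MT1X 4 and that of SLC30A1 2, while that of MTF1 (chr1:37859543-37859842, minus strand) held 0. No cores overlapped each other. Of 35116 RefSeq promoters of this length, with chromosome 8 left out, 29.6% held at least 1 core, 8.6% at least 2 and 0.601% at least 4. With the start base counted as 0, MT2A and MT1H each had a core at bases -8 to -2. Further cores lay at -54 to -48 in MT2A and at -53 to -47 in both MT1H and MT1X. Since LDB1 is known to act with GATA factors on DNA, the GATA motif was also searched on both strands, as AGATAA or AGATAG or TGATAA or TGATAG. It was found once, in the SLC30A1 promoter at bases -236 to -231, and it overlapped no core. Of the same 35116 promoters, 25% held at least 1 match. A match describes letters and not a bound site.

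**Figure D1:**
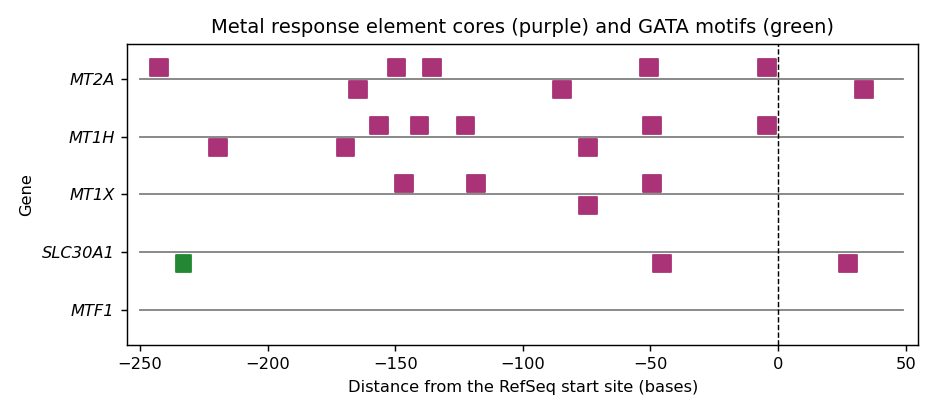
Position of metal response element cores (purple) and GATA motifs (green) in 5 promoters, against the distance in bases from the RefSeq start site (dashed line). Marks above a line are on the strand of the gene and marks below it on the opposite strand. MT2A and MT1H each show 8 cores and MTF1 shows 0.

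Levels were compared between genes only as FPKM, which is per length. In sh-NC the order of the means was MT2A (354.8 FPKM), MT1G (90.5), SLC30A1 (22.9), MT1X (22.7), MT1E (10.4), MT1F (3.48), MT1H (3.45) and MTF1 (2.23). The ranges of SLC30A1 and MT1X overlapped, as did those of MT1F and MT1H, and the other neighbours in this order did not. In sh-LDB1 the order was MT2A (388.4 FPKM), MT1G (55.4), MT1X (28.4), SLC30A1 (22.8), MT1E (11.98), MTF1 (4.57), MT1F (4.19) and MT1H (1.29). There the ranges of MTF1 and MT1F were the only neighbours to overlap. Both orders rest on the gene lengths behind the deposited FPKM and change with other lengths.

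**Figure D2:**
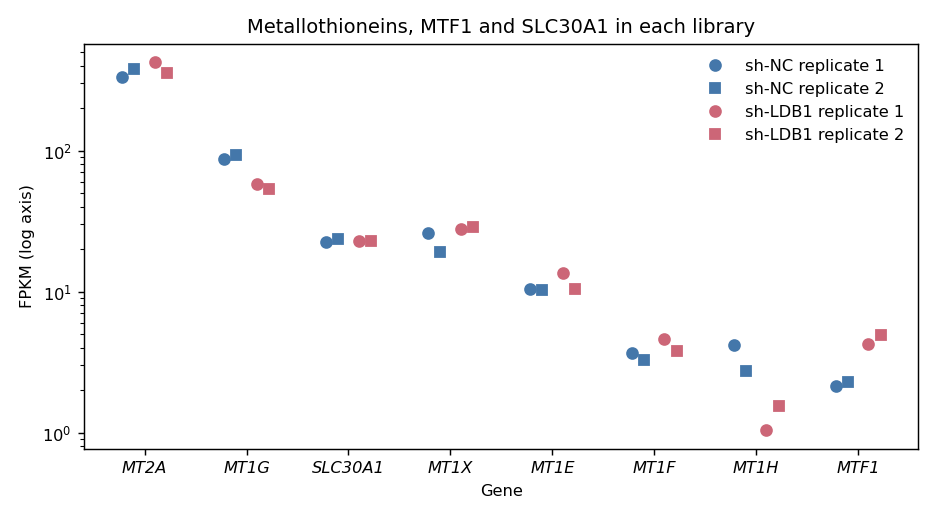
FPKM (log axis) of the 8 genes in each of the 4 libraries, with sh-NC in blue, sh-LDB1 in red, circles for replicate 1 and squares for replicate 2. MT2A lies at 333.0 to 422.5 FPKM in all libraries, while MT1G and MT1H sit lower and MTF1 sits higher in both sh-LDB1 libraries than in both sh-NC libraries.

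The neighbours MT1G and MT1H were lower in the knockdown, at 0.612 and 0.375 times the control level, and the sensor MTF1 was higher, at 2.05 times. The most abundant metallothionein, MT2A, and the exporter SLC30A1 did not pass the test. The fit was limma on log2(FPKM + 1) over the 13300 genes that averaged at least 1 FPKM, and all 8 genes were among them. At a Benjamini-Hochberg adjusted p-value below 0.05, MTF1 was higher (1 of 8) and MT1G and MT1H were lower (2 of 8). Over all tested genes 29.9% were higher and 37.4% lower by this rule, and neither count of the 8 genes exceeded the background share. With the fold change of 2 that the study required in addition, 0 of 8 were called in either direction, against 9.5% of tested genes higher and 10.3% lower. Without adjustment, 1 gene was higher and 2 were lower at p below 0.05, and 0 of these passed the fold change. Voom on the recovered reads, the other model run, called MTF1 and MT1H past the fold change. Over the 13300 genes that model called 1753 higher and 1930 lower by the same rule. Control and knockdown values were fully separate for 5 of the 8 genes (MT1X, MT1F, MT1G, MT1H and MTF1), against 84.6% of tested genes. The median log2 fold change of the 8 genes was 0.15, and that of all tested genes was -0.08. With libraries scaled to the same summed FPKM, the median over all genes moved by 0.14 on the log2 scale. The share of lower genes among calls past the fold change then went from 52.0% to 37.9%. At the adjusted p-value, 4 of the 8 genes (MTF1, MT1X, MT1F and SLC30A1) were then higher and 2 lower. By that rule and scaling, 4925 of 13333 tested genes were higher and 4029 lower.

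**Figure D3:**
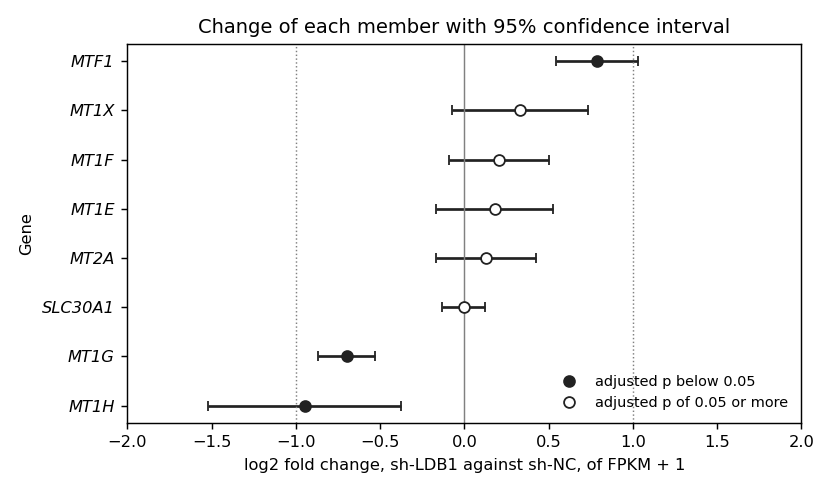
Log2 fold change of FPKM + 1 in sh-LDB1 against sh-NC for each gene (points), with its 95% confidence interval from limma (bars). Filled points have an adjusted p-value below 0.05, dotted lines mark a fold change of 2 in either direction, and MTF1, MT1G and MT1H are the filled points.

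MT2A, the most abundant metallothionein here, was measured at 333.0 and 376.6 FPKM in control cells and 422.5 and 354.3 FPKM in knockdown cells. The higher and lower values alternated between groups, so the groups overlapped. The mean was 354.8 ± 30.8 FPKM in the controls and 388.4 ± 48.2 FPKM in the knockdown (SD, n = 2 each). The log2 fold change was 0.13 ± 0.111 (SE, limma, adjusted p = 0.358). Its 95% confidence interval ran from -0.17 to 0.42, inside a fold change of 2 in either direction. The values rested on 6965 to 8793 reads per library, so counting error was small beside the spread of the replicates.

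MT1G, a neighbour of MT1H, stood at 87.3 and 93.6 FPKM in the controls, against 57.7 and 53.1 FPKM in the knockdown. Both knockdown libraries lay below both controls. The mean fell from 90.5 ± 4.42 to 55.4 ± 3.21 FPKM (SD, n = 2 each), a ratio of 0.612. The log2 fold change was -0.70 ± 0.0631 (SE, limma, adjusted p = 0.000912; 95% confidence interval -0.87 to -0.53). It rested on 1060 and 1035 reads in the controls, and on 693 and 603 in the knockdown.

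MT1H was at 4.19 and 2.72 FPKM in control cells and 1.04 and 1.55 FPKM in knockdown cells. The groups did not overlap, although the control replicates lay further apart than the nearest libraries of both groups. The mean fell from 3.45 ± 1.04 to 1.29 ± 0.366 FPKM (SD, n = 2 each), a ratio of 0.375. The log2 fold change was -0.95 ± 0.214 (SE, limma, adjusted p = 0.0163; 95% confidence interval -1.52 to -0.37). With a pseudocount of 0.01, and with voom on the recovered reads, it was -1.40, past a fold change of 2. These values rested on only 49 and 29 reads in the controls, and 12 and 17 in the knockdown. The adjusted p-value was 0.0553 without sh-NC replicate 1 (log2 fold change -0.71), 0.0759 without sh-LDB1 replicate 1 (-0.78) and 0.0535 without a filter on low genes.

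MT1X, MT1E and MT1F are further zinc-binding metallothioneins of the MT1 group, and none passed the test. MT1X was at 26.2 and 19.2 FPKM in the controls, against 28.0 and 28.9 FPKM in the knockdown, with its lowest value in sh-NC replicate 2. Its log2 fold change was 0.33 ± 0.151 (SE, limma, adjusted p = 0.116; 95% confidence interval -0.074 to 0.74). Without sh-NC replicate 1, which is the control nearer to the knockdown, it was 0.55 with an adjusted p-value of 0.00445, and voom on the recovered reads gave 0.34 with 0.0164. MT1E was at 10.4 and 10.3 FPKM in control cells and 13.6 and 10.4 FPKM in knockdown cells. Only sh-LDB1 replicate 1 stood apart. The log2 fold change was 0.18 (adjusted p = 0.273; interval -0.17 to 0.53), and it was 0.36 without sh-LDB1 replicate 2 (adjusted p = 0.0278). MT1F was at 3.70 and 3.27 FPKM in the controls, against 4.59 and 3.78 FPKM in the knockdown. The knockdown libraries lay above the controls by a small margin, with a log2 fold change of 0.21 (adjusted p = 0.161; interval -0.088 to 0.50).

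MTF1, the zinc-sensing transcription factor, was at 2.16 and 2.30 FPKM in control cells and 4.26 and 4.88 FPKM in knockdown cells. Both knockdown libraries were well above both controls. The mean rose from 2.23 ± 0.101 to 4.57 ± 0.439 FPKM (SD, n = 2 each), a ratio of 2.05. On the log2(FPKM + 1) scale, which understates changes of low genes, the fold change was 0.79 ± 0.0913 (SE, limma, adjusted p = 0.00192; 95% confidence interval 0.54 to 1.03). It rested on 272 to 593 reads per library. With a pseudocount of 0.01 the log2 fold change was 1.03, just past a fold change of 2.

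SLC30A1, the plasma membrane zinc exporter, was at 22.3 and 23.5 FPKM in the controls, against 22.7 and 22.99 FPKM in the knockdown. The knockdown values lay between the control values. The log2 fold change was -0.0049 ± 0.0476 (SE, limma, adjusted p = 0.935), and its 95% confidence interval ran from -0.13 to 0.12. It rested on 1897 to 1988 reads per library. With libraries scaled to the same summed FPKM the log2 fold change was 0.16 (adjusted p = 0.0401), and it was 0.016 once the shift of the median over all genes was taken off.

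The make-up of the metallothionein transcripts was then examined. The 6 genes summed to 464.8 and 505.6 FPKM in the controls and to 527.3 and 452.1 FPKM in the knockdown, so the totals of the groups overlapped. MT2A made up 71.6% and 74.5% of the sum in the controls, against 80.1% and 78.4% in the knockdown. MT1G went from 18.8% and 18.5% of the sum to 10.9% and 11.8%. MT1H contributed 0.901% and 0.538% of the control sums, and 0.196% and 0.344% of the knockdown sums. The shares of MT1E (2.04% to 2.58%) and MT1F (0.646% to 0.871%) were slightly higher in both knockdown libraries (those of MT1E overlapped with canonical transcript lengths), and those of MT1X (3.79% to 6.4%) overlapped. The share of MT2A was therefore higher and those of MT1G and MT1H lower in both knockdown libraries, within a total of similar size. An exact permutation test of 2 libraries against 2 cannot give a p-value below 0.33, so none is given for these shares.

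**Figure D4:**
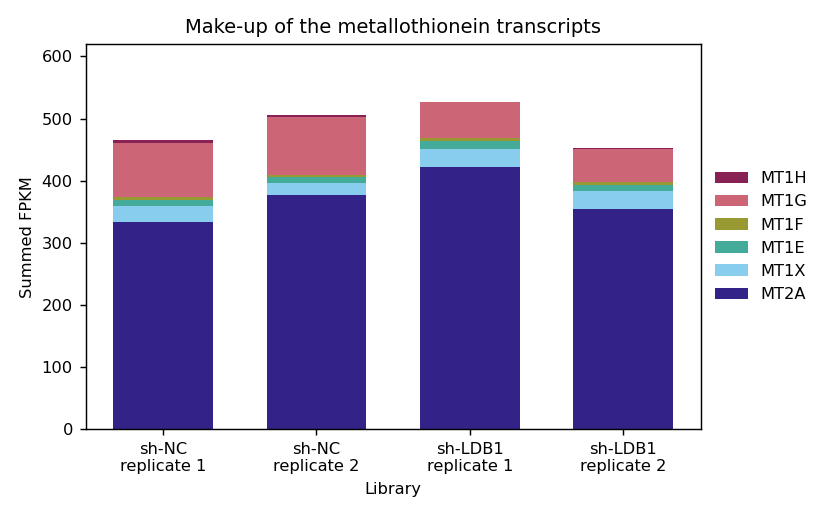
Summed FPKM of the 6 metallothionein genes in each library, stacked by gene. The total lies between 452.1 and 527.3 FPKM, and the band of MT1G is thinner in both sh-LDB1 libraries than in both sh-NC libraries.

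A ratio of genes within a library does not depend on how libraries are scaled. MT1G stood at 26.2% and 24.8% of the MT2A level in the controls, and at 13.7% and 15.0% in the knockdown. MT1H stood at 1.26% and 0.722% of it, and then at 0.245% and 0.439%. MTF1 stood at 0.647% and 0.610% of it, and then at 1.01% and 1.38%. For these 3 genes the groups did not overlap. For MT1X, MT1E, MT1F and SLC30A1 the ratios to MT2A overlapped between groups. A ratio shows unequal change and not which gene of the pair changed.

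The lengths and the likeness of these genes bear on the levels. The gene length inferred from the deposited FPKM of MT2A was 1299 bases, while its canonical transcript in GENCODE, with 3 exons, has 401. For MT1X these were 1773 and 404 bases, for MT1F 1889 and 425, and for MT1G 750 and 410. With the canonical length, chosen after the data were seen, MT2A made up 79.2% of the sum in the controls and 82.6% in the knockdown, and MT1G made up 11.4% and 6.68%. The order of the lower genes also changed with that length. The mean of MT1F was then 15.5 FPKM in the controls and 18.6 FPKM in the knockdown, above MT1E at 14.6 and 16.9 FPKM, and that of MT1H was 6.29 and 2.36 FPKM. Stretches of 50 bases that also occur in a transcript of another gene made up 51.0% of the MT1X transcript, 20.4% of MT1H, 19.9% of MT1G, 11.1% of MT2A, 10.3% of MT1E and 6.12% of MT1F. How shared reads were counted is not given in the sources used here, so levels within this family are uncertain to that extent. The canonical MT1H transcript shares such stretches with MT1G and with the MT1H-like gene MT1HL1, and that of MT1E with a transcript of MT1H. SLC30A1 shares 0% and MTF1 0.647%.

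Other metallothionein genes were near the floor. Of 15 further genes and pseudogenes of the family on the list, 6 had a value. MT1A was at 0.624, 0.856, 1.10 and 0.167 FPKM in replicates 1 and 2 of the controls and replicates 1 and 2 of the knockdown, on 1 to 7 reads. MT1B was at 0.178 FPKM or less in every library. Only the pseudogenes MT1P1 and MT1XP1 reached the filter, and neither passed the test, with 7 reads or fewer per library.

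Further zinc transporters were read from the families of exporters and importers. Of the other 9 members of the SLC30 family, 6 were tested. There were 4 higher and 1 lower at an adjusted p-value below 0.05, where 29.9% and 37.4% of all tested genes were called. The median log2 fold change was 0.64, against -0.08 over all tested genes. SLC30A5, a carrier of zinc into the Golgi, was at 12.8 and 13.6 FPKM in control cells and 26.6 and 27.2 FPKM in knockdown cells (log2 fold change 0.98, limma adjusted p = 0.000216). It had the highest mean of this list. SLC30A7, also of the Golgi, rose by 0.80 on the log2 scale, SLC30A3 by 0.70 and the mitochondrial SLC30A9 by 0.58. The log2 fold change of SLC30A6, the partner of SLC30A5, was 0.012 (adjusted p = 0.895). SLC30A10, known mainly as a manganese exporter of the cell surface, was the only member past a fold change of 2 on the log2(FPKM + 1) scale, while the ratios of mean FPKM were 2.04 for SLC30A5, 2.18 for SLC30A7 and 2.33 for SLC30A3. SLC30A10 stood at 3.30 and 3.83 FPKM in the controls, against 0.184 and 0.0573 FPKM in the knockdown (log2 fold change -2.03, limma adjusted p = 0.000448), on 17 and 5 reads in the knockdown.

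Of the 14 SLC39 (ZIP) genes, whose products bring zinc into the cytosol, 13 had a value and 10 were tested. There were 6 higher and 3 lower at an adjusted p-value below 0.05, against 29.9% and 37.4% of all tested genes. Past the fold change there were 4 higher and 1 lower, against 9.5% and 10.3%, and the median log2 fold change was 0.72. SLC39A7, which releases zinc from the endoplasmic reticulum, had the highest level, 72.6 and 60.6 FPKM in the controls against 172.2 and 166.4 FPKM in the knockdown (log2 fold change 1.34, limma adjusted p = 0.000458). SLC39A13 rose by 1.93, SLC39A6 by 1.40 and SLC39A11 by 1.22 on the log2 scale. SLC39A8, a surface importer of zinc and manganese, fell from 10.2 and 10.6 FPKM to 1.67 and 1.68 FPKM (log2 fold change -2.09, limma adjusted p = 9.3e-05). The counts of both families at the adjusted p-value were the same under each of the 2 other scalings. Control and knockdown values were fully separate for each of the 10 tested SLC39 genes, against 84.6% of all tested genes, and SLC39A4 alone did not pass the test.

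**Figure D5:**
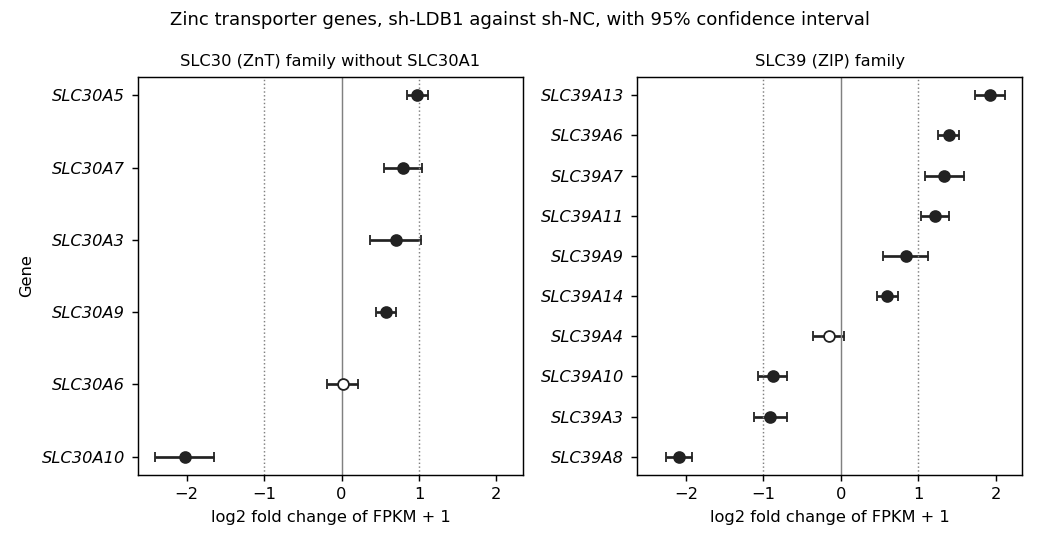
Log2 fold change of FPKM + 1 in sh-LDB1 against sh-NC for the tested SLC30 genes other than SLC30A1 (left) and the tested SLC39 genes (right), with 95% confidence intervals from limma. Filled points have an adjusted p-value below 0.05, dotted lines mark a fold change of 2, and SLC30A10 and SLC39A8 are the points below the lower line.

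Metallothioneins also bind copper, so copper genes were listed. Of 10, 9 were tested, with 3 higher and 3 lower at an adjusted p-value below 0.05 (median log2 fold change 0.025), beside the same 29.9% and 37.4% over all tested genes. The copper importer SLC31A1 rose from 15.8 and 16.1 FPKM to 65.2 and 63.1 FPKM (log2 fold change 1.94, limma adjusted p = 7e-05). The copper-zinc superoxide dismutase SOD1, the most abundant of the list, fell from 154.2 and 144.3 FPKM to 42.5 and 36.9 FPKM (-1.89). The metalloreductase STEAP3 (-1.92) and the copper exporter ATP7B (-1.23) fell as well.

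Genes that metals and oxidants are known to induce were a further list of 10, of which 9 were tested. There were 4 higher and 2 lower at an adjusted p-value below 0.05, with a median log2 fold change of 0.056, beside 29.9% and 37.4% over all tested genes. NQO1, a quinone reductase, rose by 2.61, and the heat shock proteins HSPA1B and HSPA1A, whose near-identical genes can share reads, rose by 1.49 and 1.29. GCLM (0.41) was also higher, and the 2 lower genes were DNAJB1 (-0.83) and SLC7A11 (-0.75). TXNRD1, a thioredoxin reductase, was at 36.7 and 39.96 FPKM in control cells and 39.4 and 40.3 FPKM in knockdown cells (log2 fold change 0.056, adjusted p = 0.423). HMOX1, a heme oxygenase that zinc and cadmium induce, was under the filter, at 0.0514 and 0 FPKM in the controls, against 0.389 and 0.275 FPKM in the knockdown. The HMOX1 values rested on 2 and 0 reads in the controls and on 15 and 10 in the knockdown. Glucocorticoids are another known inducer of MT2A, and of 8 genes of that response 7 were tested, with 3 higher and 1 lower (median log2 fold change 0.39) beside the same background. TSC22D3 (2.08) and DUSP1 (1.85), the latter with the highest mean over all libraries, rose and FKBP5 (-1.49) fell. The level of the receptor NR3C1 was 4.49 and 5.18 FPKM in the controls against 4.21 and 4.26 FPKM in the knockdown (adjusted p = 0.167).

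The genes flanking the metallothionein cluster were also listed. Of 13 listed neighbours, 9 were tested, with 2 higher and 6 lower at an adjusted p-value below 0.05 beside 29.9% and 37.4% of all tested genes. Their median log2 fold change was -0.55, against -0.08 over all tested genes. CIAPIN1, of iron-sulfur protein assembly, fell by 1.44 on the log2 scale. NUDT21, a cleavage factor of messenger RNA and the most abundant neighbour, rose by 0.23. HERPUD1, of endoplasmic reticulum stress, rose by 2.21 and had the highest level in sh-LDB1. Whether MT1G and MT1H moved with their region was not tested.

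The pattern most like that of MT2A and of SLC30A1 was searched among the other tested genes that averaged at least 10 FPKM, 4839 genes in all with the query. The measure was the distance between log2(FPKM + 1) values centred on each gene's own mean over the 4 libraries. Nearest to MT2A were BACH1 (distance 0.0679), QRICH1 (0.0798), MALAT1 (0.0802) and NDUFS4 (0.0815). BACH1, a heme-sensing repressor, was at 9.91 and 10.8 FPKM in control cells and 11.95 and 10.2 FPKM in knockdown cells. Nearest to SLC30A1 were MPHOSPH10 (0.00405), RAB10 (0.0157), AKIRIN2 (0.0195) and NSA2 (0.022). With 4 libraries such likeness is a description only.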

How the data were processed

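RNA-seq of 2 sh-NC and 2 sh-LDB1 libraries labelled NB4 was used. The deposited values are FPKM per gene and library. The authors filtered the reads and mapped them with HISAT, and the submitters' processing notes name HISAT2 2.0.5 and hg38. The counting tool, annotation and use of strand are not given in the sources used here. The sample titles gave group and replicate.

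Whole reads were recovered from the FPKM, because each gene steps by a fixed FPKM for every read (tolerance 0.002 reads). This gave whole reads for 100.0% of genes. The scale came from gene lengths of GENCODE release 44, and each gene was given the smallest number of reads that made its length whole, or for genes of few reads the multiple nearest to its annotated length. Lengths inferred in this way lay within 1% of the annotated ones for 59.28% of genes of at least 20 reads. Recovered reads served depth, the read counts given, voom and the levels with canonical lengths only. Genes averaging at least 1 FPKM were tested on log2(FPKM + 1) by limma 3.58.1 in R 4.3.3 (eBayes with a trend), with Benjamini-Hochberg adjustment over 13300 genes. The authors called changed genes with DESeq2, and their fold change of 2 (or 0.5) was a second threshold. The design allowed for counts, but the table held FPKM, so edgeR and DESeq2 were not run, and voom on the recovered reads was an alternative. Voom was given the relative library depths behind the deposited FPKM, so it does not check the scaling. The fit was also run on simulated data in which a small part of the genes changed, far less than was called here. That run cannot judge the scaling of these libraries. Python 3.11.15, pandas 2.3.3 and numpy 2.4.6 did the rest.

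The 8 genes and the gene lists were chosen with earlier results of these data known. Named genes were LDB1, the 8 genes, the members of each list past both thresholds with the largest changes (at most 5 in each direction), the most abundant member of each list, and the 4 genes nearest in pattern to MT2A and to SLC30A1. Other genes named were added after their values were seen, and 1 gene that the rule names is not reported here. Alternatives covered the pseudocount, the filter, the scaling, the model, the replicate block and the omission of each library.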

Additional observations from a re-analysis of the deposited data

How the results depend on the processing

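MT1G and MTF1 kept their direction and an adjusted p-value below 0.05 under every alternative that gave them a value, between -0.76 and -0.53 for MT1G and between 0.71 and 1.03 for MTF1. MT2A stayed without a call, between 0.00080 and 0.30. MT1H lay between -1.40 and -0.71 over all alternatives, and between -1.19 and -0.71 on omission of single libraries. It lost its call without a filter (-0.95) and on omission of sh-NC replicate 1 (-0.71) or sh-LDB1 replicate 1 (-0.78). MT1X gained a call with libraries scaled to the same summed FPKM (0.50) and with voom on the recovered reads (0.34), and MT1F in the former (0.34). Omitting single libraries gave 0.12 to 0.55 for MT1X, 0.0013 to 0.36 for MT1E and -0.040 to 0.030 for SLC30A1. The sign of SLC30A1 turned with the same summed FPKM (0.16) and with the median of ratios over tested genes (0.091). Past the fold change, 1 of the 8 genes was higher and 1 lower with a pseudocount of 0.1, with 0.01 and with voom, 1 and 2 without a fold change threshold, and 0 to 1 lower on omission of single libraries. Past the fold change, 1697 of the 13300 tested genes were higher and 1880 lower with a pseudocount of 0.1. There were 1731 and 1921 with 0.01, and 1753 and 1930 with voom. By the adjusted p-value alone, 1 of the 8 genes was lower without a filter. With a filter at 5 FPKM, which removed MT1F, MT1H and MTF1, 0 were higher and 1 lower. With the same summed FPKM 4 were higher, and 2 with voom. Omission of single libraries gave 1 to 2 higher and 1 to 2 lower. With the filter at 5 FPKM, 710 of 7506 tested genes were higher past the fold change, against 1264 of 13300 in the main fit. Of the 13300, 568 were higher and 581 lower with limma treat, and 3983 and 4978 without a fold change threshold. By the adjusted p-value alone, 4917 of 28412 genes were higher and 4843 lower without a filter. Counts were 2485 and 3557 of 7506 with the filter at 5 FPKM. They were 4925 and 4029 of 13333 with the same summed FPKM, and 4237 and 5211 of 13300 with voom. The causes of these moves were not tested. The share of MT2A in the sum moved to 79.2% and 82.6% with canonical lengths.

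The groups share replicate numbers, but nothing says that a number marks a shared culture. The correlation of the replicate 1 deviations between groups was 0.0196 over 13300 genes. With the replicate block, 1274 genes were higher and 1386 lower past the fold change, and no call among the 8 genes changed. EdgeR and DESeq2, planned for counts, were left out since the values are FPKM. At 12 to 49 reads, depth limits MT1H most.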
